A study of Mus musculus with 3 samples.

Results

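The integrin and laminin genes of the adult mouse heart were examined in 3 arrays that set Lrrc10-/- against wild-type hearts. Every array probe whose gene name was that of an integrin alpha chain, an integrin beta chain or a laminin chain was taken, and names of integrin binding proteins were left out. This gave 80 probes of 37 genes, of 41174 probes of 27975 genes on the array, with 26 integrin genes on 60 probes and 11 laminin genes on 20 probes. LRRC10 is a protein of heart muscle cells built of leucine-rich repeats, and the study compared the hearts of mice that lack it with those of wild-type mice. Each array was hybridized with Cy5-labelled RNA pooled from 2 hearts labelled Lrrc10-/- and with Cy3-labelled RNA pooled from 2 Lrrc10+/+ hearts. The mice of both groups were 2 months old and of the C57/BL6 strain. Whole hearts were used, so fewer cells of a type and less RNA per cell cannot be told apart. The 3 arrays, called replicates 1 to 3, lay on 1 slide and carried the dyes the same way round, so a dye effect and the genotype cannot be told apart. The labels call the wild-type RNA a reference pool, while the methods speak of littermate hearts and of independent replicates, and neither says outright whether each array had a wild-type pool of its own.

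The targeted gene did not follow the labels. The Lrrc10 probe had processed signals of 14283, 20828 and 17703 in Cy5, the channel labelled Lrrc10-/-, and of 476, 443 and 352 in Cy3, the channel labelled wild type, on replicates 1, 2 and 3. Its mean log2 ratio of Cy5 over Cy3 was 5.37 ± 0.41 (SD, n = 3 arrays), which is opposite to what a deletion in the Cy5 channel would give, and whether the probe lies inside the deleted stretch was not tested. All directions are therefore given by channel. A positive log2 ratio means brighter in Cy5 (labelled Lrrc10-/-), and a negative one means brighter in Cy3 (labelled wild type). The processed signal is the brightness of a spot after background subtraction and dye normalization within its array. It has no unit, and it is compared only within a probe. The ratios of the 3 arrays were nearly unrelated across the 63 integrin and laminin probes that were tested. Their correlation across probes, which are not independent replicates, was 0.28 between replicates 1 and 2, 0.09 between replicates 1 and 3 and -0.19 between replicates 2 and 3. With the brightest probe of each gene only it was 0.13, 0.03 and -0.01, and over all tested probes of the array 0.096, -0.037 and -0.18.

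Integrins are receptors of the cell surface, each made of an alpha and a beta chain, that hold a cell to the matrix around it and pass force and signals inward. Laminins are matrix proteins of an alpha, a beta and a gamma chain that form the basement membrane around each heart muscle cell and under the lining of vessels. In the heart muscle cell the main laminin receptor is made of the integrin alpha7 and beta1 chains, and laminin alpha2 is the chain whose loss causes a muscular dystrophy. Inside the cell, talin, kindlin and the kinase ILK tie the beta chains to actin.

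Of the 37 genes, 34 had a probe with a mean signal of at least 20 over both channels and all arrays and were tested, 24 integrin and 10 laminin genes on 63 probes. Itga2, Itga10 and Lama1 were below this signal and were not tested. Itga2 and Lama1 were not well above background on any array. Of the 80 probes, 53 were clearly brighter than background in Cy3 and Cy5 alike on each of the 3 arrays, 15 in neither channel of any array, and 0 were saturated.

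No integrin or laminin probe passed the test over the arrays. Limma with Benjamini-Hochberg adjustment over 29576 probes gave each of the 63 an adjusted p of 1.00. It thus called 0 of the 63 brighter in Cy5 and 0 brighter in Cy3 at an adjusted p under 0.05, against 0.00676% and 0% of all probes. At an unadjusted p under 0.05, 2 of the 63 were brighter in Cy5, against 1.54% of all probes, and 1 was brighter in Cy3, against 1.52%. The 2 were probes of Lamb3 and Itgb3, and the 1 was a probe of Itga9. Without the intensity trend limma also called 0, and a one-sample form of the test that the study's methods name in general called 0 after adjustment and 2 before it, both brighter in Cy5, against 2.01% of all probes. By the brightest probe of each gene, 5 of 34 genes had the brighter signal in Cy5 on each array, against 9.47% of 20186 genes, and 0 had it in Cy3 on each array, against 12.3%. The 5 were Lamb3, Itgav, Itgb3, Itgb6 and Itgb2l. Itgb2l reached the minimum signal through Cy5 alone and was well above background in Cy3 on 1 array, and 4 genes remained among those well above background in both channels, against 9.25% of such genes. The other 29 genes changed sign between arrays. At least 1.2-fold on every array were 3 of the 34 in Cy5 (Lamb3, Itgav and the dim Itgb2l, so 2 without the last), against 1.6% of all genes, and 0 in Cy3, against 2.23%. The study's methods also ask for a p under 0.05, which was read here as the deposited p of each array. With that criterion 1 gene was left in Cy5, Lamb3, against 0.436% of all genes, and 0 in Cy3, against 0.619%. With replicate 1, 2 or 3 left out, 3, 4 and 2 genes met both criteria in Cy5 on the remaining arrays, against 2.14%, 1.65% and 4.56% of all genes.

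**Figure D1:**
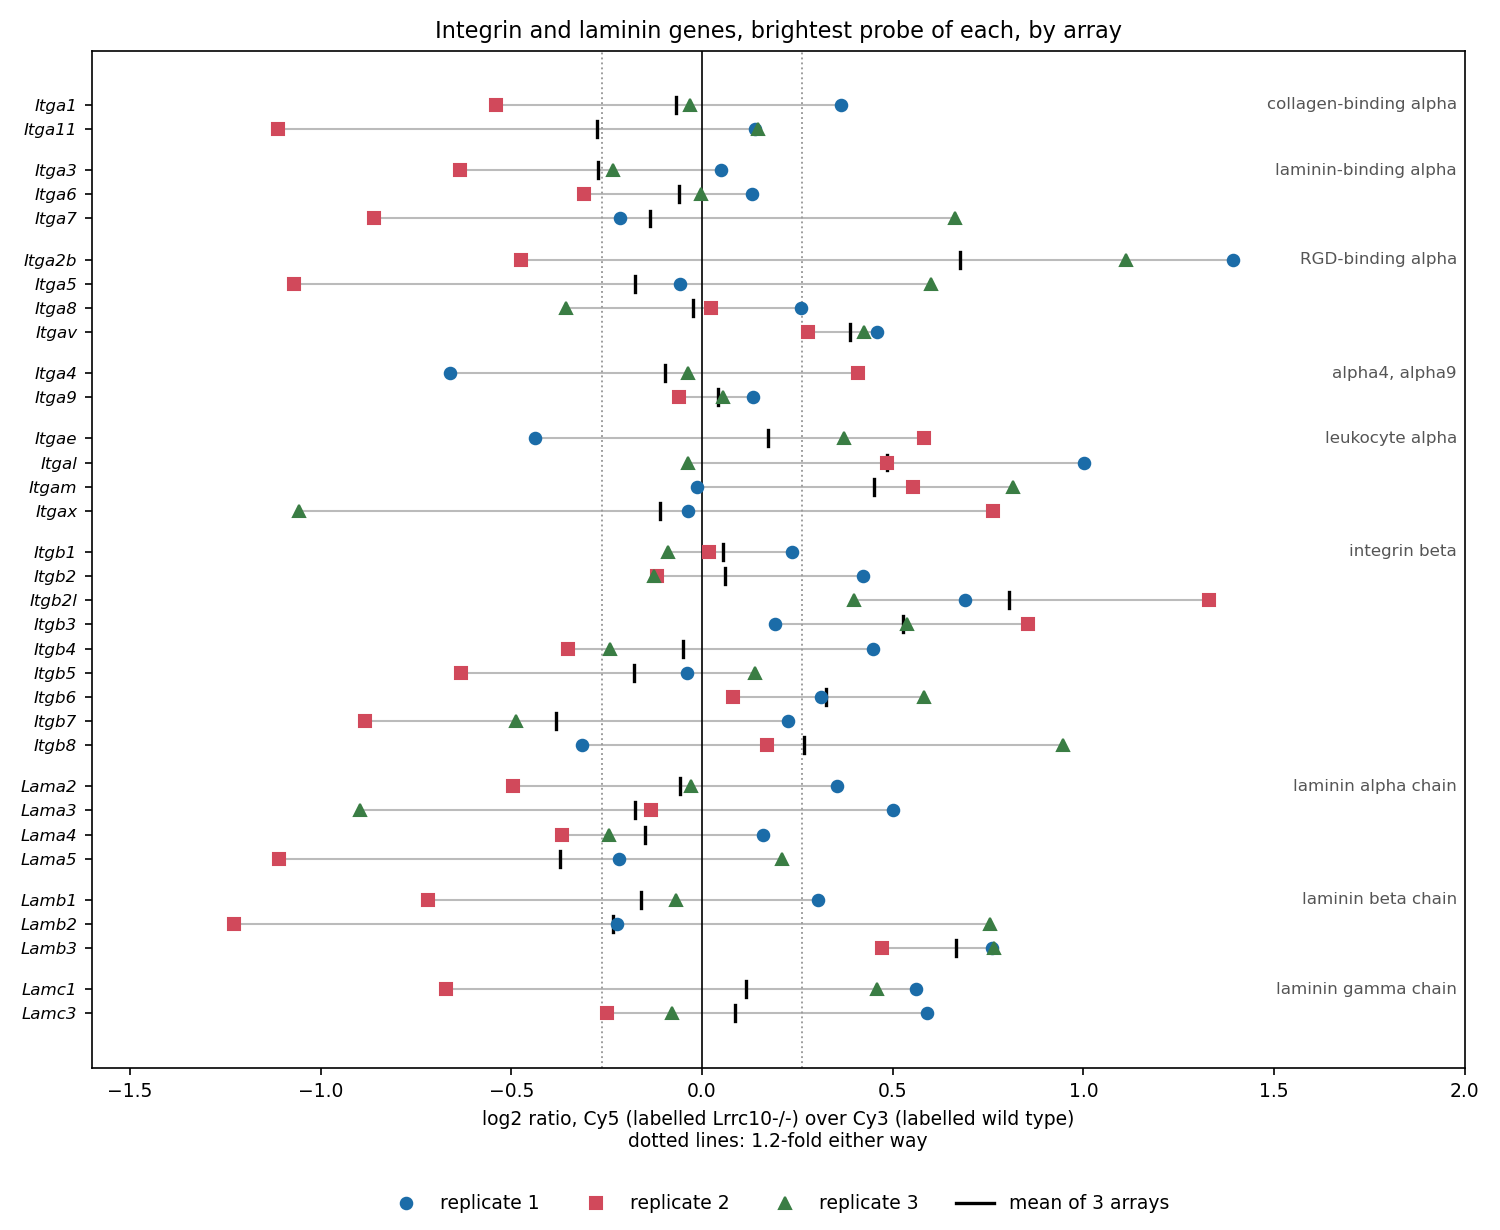
The log2 ratio of Cy5 over Cy3 (horizontal axis) of the brightest probe of each of 33 of the 34 tested genes, grouped by role, with a symbol for each of the 3 arrays, a black bar at their mean and dotted lines at 1.2-fold. Lamb3, Itgav and Itgb2l lie right of the dotted line on all 3 arrays, and replicate 2 is the lowest of the 3 arrays for 21 of the 33 genes drawn. Itga2b, drawn at its measured ratios, was not well above background in Cy3.

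Lamb3 encodes the beta3 chain, a part, with the alpha3 chain, of a laminin known from skin and other epithelia. Its only probe had signals of 423, 561 and 265 in Cy5 and of 250, 404 and 156 in Cy3 on replicates 1, 2 and 3. Cy5 was the brighter channel on each array, although the lowest Cy5 value lay below the highest Cy3 value. The log2 ratios were 0.76, 0.47 and 0.77, with a mean of 0.67 ± 0.17 (SD, n = 3 arrays) or 1.59-fold, and the p on the array was 0.00059, 0.025 and 0.00056. It was the only one of the 34 genes with a p under 0.05 on each array and the same direction on all of them. The size depended on how the signals were prepared. Normexp background correction was run with an offset of 50 added to each signal, which by itself draws the ratios of dim probes towards 0. With normexp and loess in place of the deposited signals the mean log2 ratio was 0.20 and Lamb3 no longer met the criteria. With normexp and centring on the median it was 0.34 and Lamb3 still met them. Lama3, which encodes that alpha3 chain, did not share the direction by its brightest probe. It was at 0.50, -0.13 and -0.90, with a dimmer probe at 0.38, 0.29 and 0.13. Of the epithelial markers, Krt5 and Krt14 were tested, and their median log2 ratio was 0.01, 0.40 and -0.56 on replicates 1, 2 and 3. Epcam and Cdh1 were below the minimum signal. The part of epithelial RNA in the Lamb3 ratio was not tested. The first 30 of the 60 bases of the Lamb3 probe are shown, since this probe alone carries the only gene that met both criteria.
Lamb3 probe: aatgaaagacatggagtcagaactgcttcg

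Itgav encodes the alpha chain of the vitronectin receptor, which binds the short RGD motif of matrix proteins. By its brightest probe it had signals of 1035, 1342 and 579 in Cy5 and of 753, 1106 and 432 in Cy3. The log2 ratios were 0.46, 0.28 and 0.42, with a mean of 0.39 ± 0.10 (SD, n = 3 arrays). Its 3 ratios were close together, and the p on the array was 0.028, 0.18 and 0.042, so replicate 2 missed the criterion. The other Itgav probe well above background did not share the direction, at -0.90, 0.05 and -0.31. Itgb3 encodes the beta chain that pairs with alphav and, on platelets, with alphaIIb. Its brightest probe had signals of 910, 1326 and 784 in Cy5 and of 798, 732 and 540 in Cy3. The log2 ratios were 0.19, 0.86 and 0.54, with a mean of 0.53 ± 0.33 (SD, n = 3 arrays). This probe was thus brighter in Cy5 on each array, by an amount that differed between arrays, and the other Itgb3 probe was not, at 0.39, -0.50 and 0.07. The mean of the brightest Itgb3 probe was 0.27 with normexp and loess and 0.55 with normexp and centring on the median.

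Itgb6 and Itgb8 encode further beta partners of alphav, known for releasing the growth factor TGF-beta from its latent form. Itgb6 had ratios of 0.31, 0.08 and 0.58 by its brightest probe, with signals of 3513, 4954 and 2039 in Cy5 and of 2832, 4679 and 1362 in Cy3. Its mean was 0.33 ± 0.25 (SD, n = 3 arrays). A second Itgb6 probe gave -0.43, -0.02 and 0.99, so the probes agreed on replicate 3 and not on replicate 1. Its dimmest tested probe was well above background on all 3 arrays in Cy5 and on none in Cy3. By signals after normexp, loess and normalization between arrays this bounds the ratio only at at least 1.02-fold. Itgb8 had ratios of -0.31, 0.17 and 0.95, so only replicate 3 stood clearly above 0. Itgb5, another partner of alphav, had signals of 18813, 25156 and 15069 in Cy5 and of 19339, 38987 and 13684 in Cy3. Its ratios were -0.04, -0.63 and 0.14, so replicate 2 alone was far from 0. Itgb2l, a gene named for its likeness to Itgb2, was near background. Its signals were 35.4, 18.5 and 32.6 in Cy5 and 21.9, 7.35 and 24.7 in Cy3, the ratios were 0.69, 1.33 and 0.40, and no array gave a p under 0.05. With normexp and loess its mean log2 ratio went from 0.81 to 0.01. The normexp offset of 50 lies above each of these signals, so nothing is read from that change.

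The platelet chain Itga2b, the partner of Itgb3 on platelets, was near background at 30.8, 23.1 and 33.5 in Cy5 and 11.7, 32.1 and 15.5 in Cy3. It was well above background on 2 arrays in Cy5 and on none in Cy3 (adjusted p of 1.00 by limma). Its log2 ratio on replicate 2 was -0.47, towards Cy3, so no bound on the mean ratio is given. The median log2 ratio of the platelet markers Pf4, Ppbp, Gp9 and Gp1ba was 0.14, 0.98 and 0.32 on replicates 1, 2 and 3. Brighter in Cy5 on all arrays were 2 of the 4, against 9.47% of all genes. At least 1.2-fold on all arrays was 1 of the 4, Gp9, against 1.6%. Gp1ba was well above background in both channels on 1 array only. The array with the highest platelet median, replicate 2, also had the highest Itgb3 ratio by the brightest probe, while the other Itgb3 probe was lowest on that array. The part of platelets in the Itgb3 ratio was not tested.

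**Figure D2:**
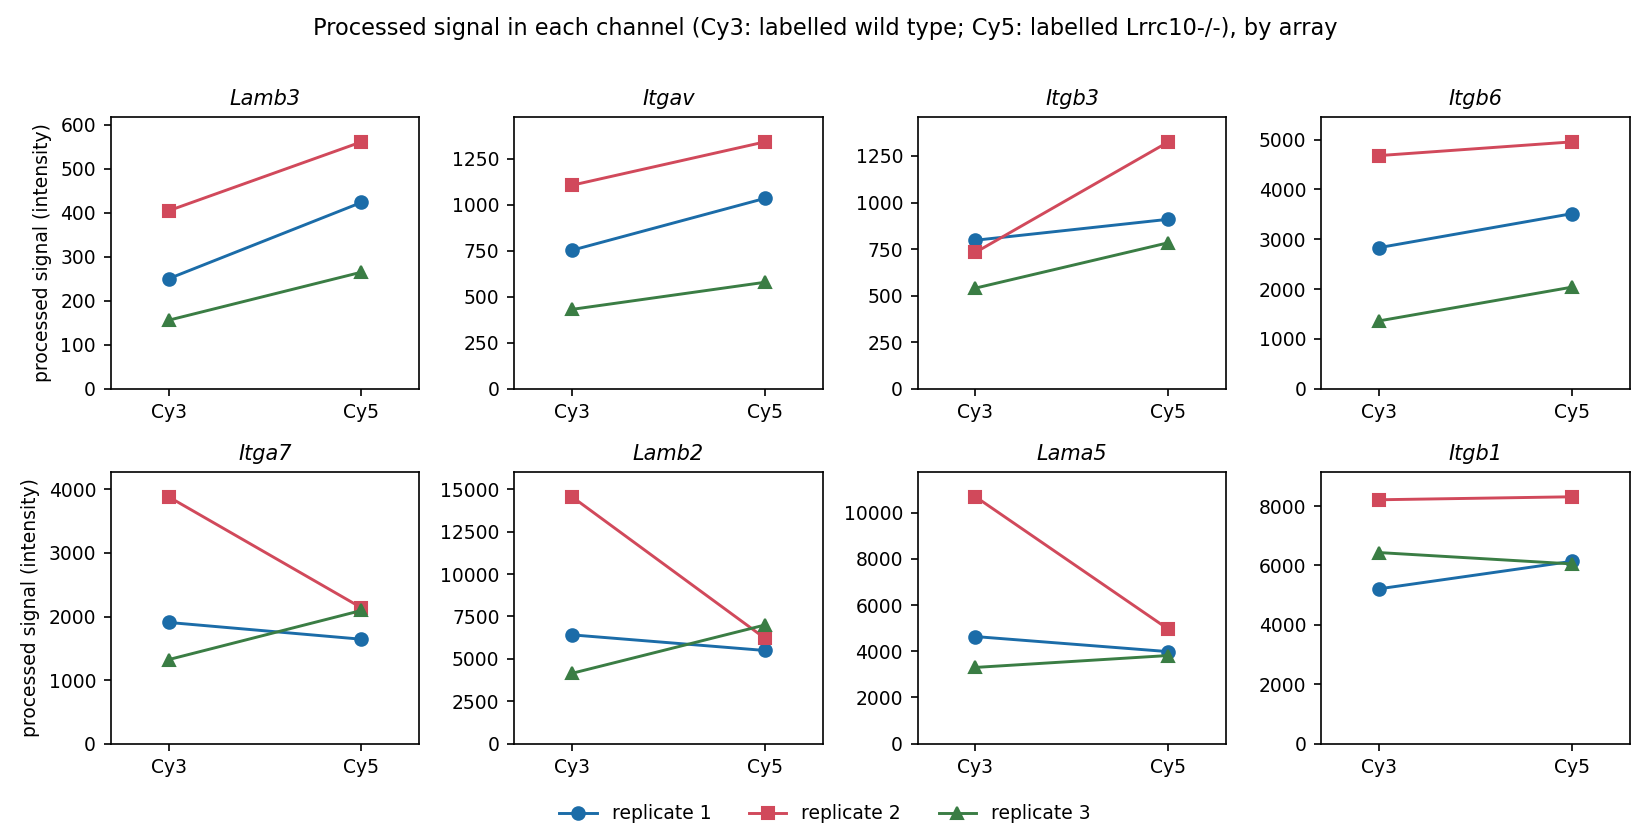
Processed signal (vertical axis, intensity without unit) of the brightest probe of 8 genes in Cy3 and in Cy5, with a line for each of the 3 arrays. The lines of Lamb3, Itgav, Itgb3 and Itgb6 rise from Cy3 to Cy5 on each array. Those of Itga7, Lamb2 and Lama5 fall steeply on replicate 2 and rise on replicate 3, that of Lama5 slightly. Those of Itgb1 rise slightly on replicate 1 and are nearly flat on replicates 2 and 3.

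The receptor chains of heart muscle showed no common direction. Itgb1 encodes the beta1 chain, which pairs with most of the matrix-binding alpha chains. Its brightest probe is printed 10 times on each array, and its value is the average of these spots. The signals were 6139, 8313 and 6052 in Cy5 and 5213, 8213 and 6435 in Cy3, and the ratios were 0.24, 0.02 and -0.09, with a mean of 0.05 ± 0.17 (SD, n = 3 arrays). The SD between the 10 spots was 0.031 on average. Over the 190 tested probes printed this way the median SD was 0.065 between spots and 0.35 between arrays. A probe made from a beta1D record, the form of the chain known from striated muscle, gave 0.12, -0.16 and 0.34. Itga7 encodes the laminin-binding alpha chain of muscle. It had signals of 1643, 2138 and 2096 in Cy5 and of 1907, 3884 and 1322 in Cy3 by its brighter probe. The ratios were -0.22, -0.86 and 0.66, and its other probe gave -0.52, -1.12 and 1.08, so both probes put replicates 2 and 3 on opposite sides of 0. Their means were -0.14 ± 0.77 and -0.19 ± 1.14 (SD, n = 3 arrays). Itga6 and Itga3, laminin-binding chains of vessels and epithelia, had brightest-probe ratios of 0.13, -0.31 and -0.00 and of 0.05, -0.63 and -0.23. Their ratios were again lowest on replicate 2.

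Itga5, the fibronectin receptor chain, had ratios of -0.06, -1.07 and 0.60, the order over arrays seen for Itga7. The brightest probes of the collagen receptor chains were also lowest on replicate 2. Itga1 was at 0.37, -0.54 and -0.03, and Itga11, known from fibroblasts, at 0.14, -1.11 and 0.15. Itga11 had signals of 1081, 1227 and 633 in Cy5 and of 982, 2651 and 572 in Cy3, so the Cy3 signal of replicate 2 stood out. The dimmer Itga1 probes gave 0.65, -0.36 and 0.50 and gave -0.29, 0.28 and 0.39, so the order of the arrays differed between probes of this gene. Itga8, a chain of smooth muscle and fibroblasts that binds the RGD motif, was at 0.26, 0.02 and -0.36, with a dimmer probe at 0.37, 0.01 and -0.04. Itga4, the alpha chain of the receptor VLA-4 of leukocytes, was at -0.66, 0.41 and -0.04. Its dimmer tested probe was well above background on 2 arrays in Cy5 and on 1 in Cy3.

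By their brightest probes the leukocyte alpha chains lay the other way on replicate 2. All 4 tested leukocyte alpha chains, Itgae, Itgal, Itgam and Itgax, were brighter in Cy5 on that array, at 0.58, 0.49, 0.55 and 0.76, each with a p under 0.05 on the array, against 20.4% of all genes. On replicates 1 and 3 they were split. Dimmer probes of Itgal and Itgax gave -1.34 and -1.47 on replicate 2, so the direction on that array depended on the probe. Itgam, the alpha chain of Mac-1 on myeloid cells, had signals of 695, 1173 and 440 in Cy5 and of 702, 799 and 250 in Cy3, with ratios of -0.01, 0.55 and 0.82. Itgal, the alpha chain of LFA-1 on lymphocytes, was at 1.00, 0.49 and -0.04. Itgax, known from dendritic cells, was at -0.04, 0.76 and -1.06. Itgb2, the beta chain that Itgal, Itgam and Itgax share, was at 0.42, -0.12 and -0.13 and thus did not follow them on replicate 2. Itgb7, the partner of Itgae, was at 0.23, -0.88 and -0.49. Its mean, -0.38 ± 0.56 (SD, n = 3 arrays), was the lowest among the brightest probes of the integrins. With normexp and loess it was -0.03, and Itgb5 was lower at -0.41. The median of 8 leukocyte markers was -0.13, 0.12 and -0.19. Brighter on each of the 3 arrays were 0 of the 8 in Cy5, against 9.47% of all genes, and 2 in Cy3, against 12.3%. At least 1.2-fold on each array were 0 in Cy5, against 1.6%, and 0 in Cy3, against 2.23%. The part of blood cells in these ratios was not tested.

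The laminin chains of heart muscle and vessels were lowest on replicate 2. Of 10 tested laminin genes, 9 had their lowest ratio on this array and 1, Lama3, on replicate 3, while 35.2% of all tested genes had their lowest ratio on replicate 2. Lamb2, the beta chain found at the muscle cell surface and in vessel walls, had signals of 5492, 6213 and 6995 in Cy5 and of 6413, 14551 and 4146 in Cy3. Its ratios were -0.22, -1.23 and 0.75, the widest span among the brightest probes of the laminins. Lama5, a chain of vessel basement membranes, had signals of 3982, 4952 and 3815 in Cy5 and of 4634, 10683 and 3299 in Cy3, with ratios of -0.22, -1.11 and 0.21. Its mean, -0.37 ± 0.67 (SD, n = 3 arrays), was the lowest among those probes, and the 3 ratios lay on both sides of 0. The Lama5 mean was -0.05 with normexp and loess, where Lamb2 was lower at -0.28, and 0.35 with normexp and centring on the median. Lamc1, the gamma chain of most heart laminins, had ratios of 0.56, -0.67 and 0.46, each with a p under 0.05 on the array and not in the same direction. Lamb1 was at 0.30, -0.72 and -0.07. Lama2, the muscle laminin chain, has a probe printed 10 times, whose ratios were 0.35, -0.50 and -0.03 with an SD between spots of 0.054 on average and of 0.43 between arrays. Lama4, a chain of the microvessels, was at 0.16, -0.37 and -0.24. Lamc3 was dim, at 0.59, -0.25 and -0.08. A dimmer Lamc3 probe, with a listed mean of 0.99, was well above background on 2 arrays in Cy5 and on 1 in Cy3, and nothing is read from its ratios.

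Counted array by array, the most laminin and integrin genes passed the p of the array on replicate 2. On that array 12 of the 34 genes were brighter in Cy3 with a p under 0.05 on the array, against 17.3% of all genes, and 6 were brighter in Cy5, against 20.4%. On replicate 1 the counts were 7 in Cy5, against 12.5%, and 1 in Cy3, against 12.8%. On replicate 3 they were 11 in Cy5, against 11.3%, and 3 in Cy3, against 15.8%. The median log2 ratio of the laminins was 0.33, -0.43 and 0.02 on replicates 1, 2 and 3, and that of the integrins was 0.16, -0.02 and 0.10. All tested genes had medians of 0.00, 0.04 and -0.06. Averaged over arrays the medians were -0.10 for the laminins, 0.01 for the integrins and -0.01 for all genes. Without replicate 2 they became 0.17, 0.15 and -0.02, so the sign of the laminin median rests on that array. Without replicate 1 the laminin median was -0.25, and without replicate 3 it was -0.063.

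The median ratios of genes that work with these receptors were also lowest on replicate 2. Of 37 genes of the adhesion complex inside the cell 36 were tested, 0 were called by limma, 3 had the brighter signal in Cy5 on each array, against 9.47% of all genes, and 4 had it in Cy3, against 12.3%. Both shares are near those of all genes. Their median was 0.16, -0.37 and -0.02 on replicates 1, 2 and 3, and 16 were brighter in Cy3 on replicate 2 with a p under 0.05 on the array, against 17.3% of all genes. Fhl2, an adaptor of the sarcomere and of integrins, was the only one of them with a ratio of 1.2-fold or more in a common direction, at -0.79, -0.43 and -0.43, and its probe was saturated on each array, so its signal is only a bound. Lims1, which encodes the ILK partner PINCH1, was at 0.15, 0.61 and 0.60, and Ilk itself was at -0.26, -0.12 and -0.11. Lims1 and Ilk thus had their lowest ratio on replicate 1 and not on replicate 2. Of 27 basement membrane and ligand genes 25 were tested and 0 were called. On all arrays 1 was brighter in Cy5, against 9.47% of all genes, and 1 in Cy3, against 12.3%. Their median was 0.29, -0.52 and 0.01. Spp1, which encodes the integrin ligand osteopontin, was the 1 of the 25 at least 1.2-fold brighter in Cy5 on all arrays, against 1.6% of all genes. Its signals were low, at 72.5, 119 and 58.3 in Cy5 and 22.1, 57.8 and 43.1 in Cy3, with ratios of 1.71, 1.04 and 0.44, and both channels were well above background on 2 of the 3 arrays.

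The markers of the heart's cell types differed between arrays too. The median of 7 endothelial markers was 0.21, -0.54 and -0.24 on replicates 1, 2 and 3, and that of 6 fibroblast markers was 0.26, -0.14 and -0.01, both lowest on replicate 2 like the laminins. The 3 atrial markers had a median of -0.12, 3.41 and -1.15, and the 3 fat markers one of 1.52, -0.72 and -1.52. The fat medians were the ratios of the dim Adipoq, well above background in both channels on 2 arrays, while Plin1 was so on 0. The 6 heart muscle cell markers had a median of -0.17, -0.51 and -0.21, and 5 of the 6 had a saturated spot on at least 1 array. Myl2 and Tnnt2, both saturated on each array, were the 2 that reached 1.2-fold in Cy3 on all of them. The 4 smooth muscle markers had one of 0.19, -0.16 and 0.54, and the 2 red blood cell markers one of 0.79, 1.00 and -0.17, of which Hba-a1 was saturated on 2 arrays. The labelled tissue was borne out by its markers, since all 6 heart muscle cell markers were tested and well above background. The part of these differences in the integrin and laminin ratios was not tested.

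**Figure D3:**
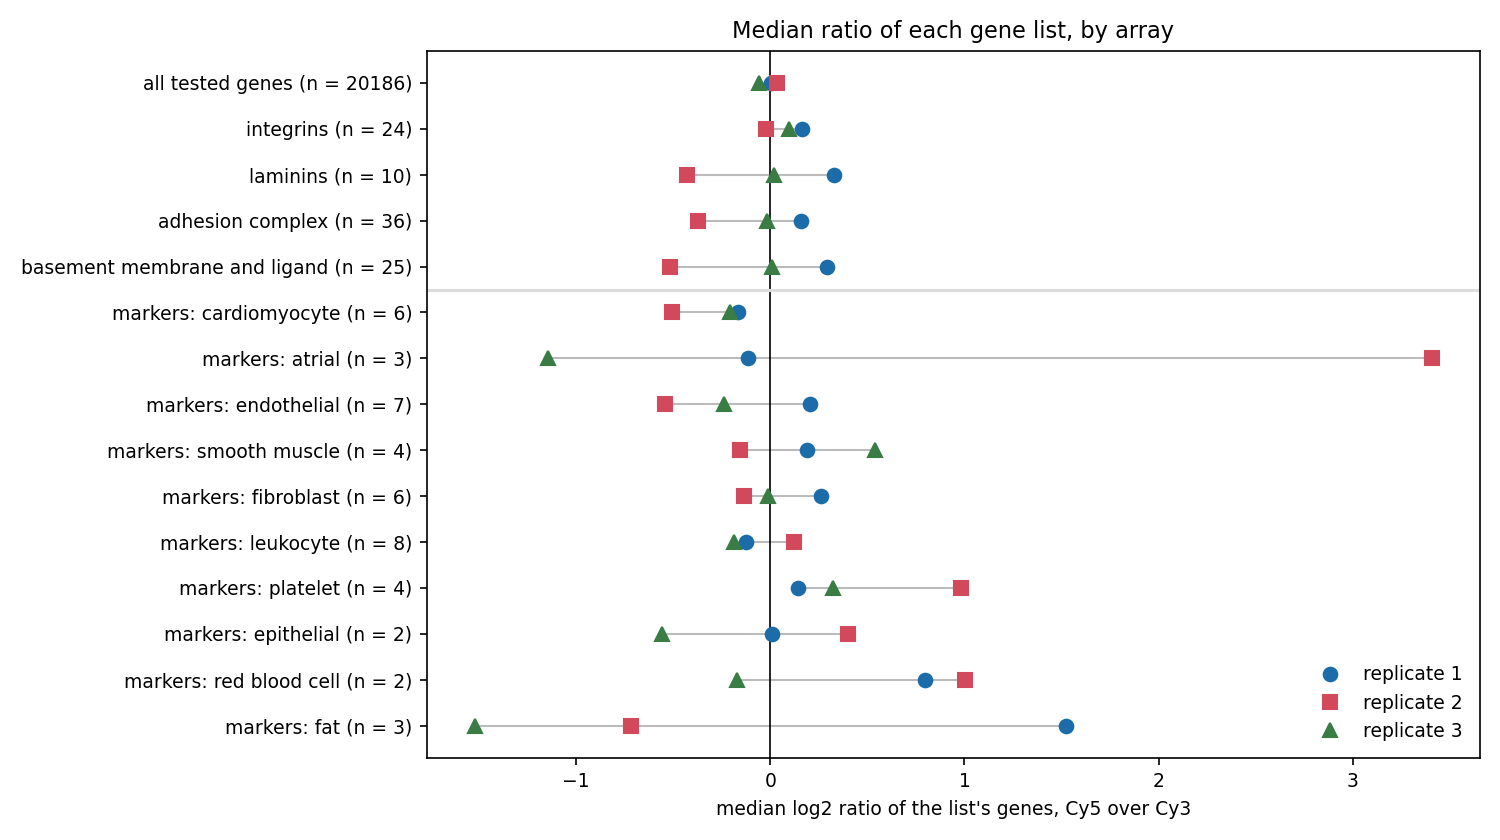
Median log2 ratio of Cy5 over Cy3 (horizontal axis) of the genes of each list, with a symbol for each of the 3 arrays and the number of tested genes in brackets. The laminins, adhesion complex, basement membrane and endothelial lists have replicate 2 lowest and replicate 1 highest, while the atrial markers lie at 3.41 on replicate 2.

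The arrays differed more in Cy3, the channel described as a reference pool, than in Cy5. To compare a probe between arrays, its log2 signal was taken relative to the median of all tested genes in that channel and array. The SD of this value over the 3 arrays was larger in Cy3 than in Cy5 for 29 of the 34 genes, and for 77.1% of all tested genes. Its median was 0.45 in Cy3 and 0.26 in Cy5 for the 34 genes and 0.37 and 0.22 for all tested genes. Lama5 spanned 2.35-fold over the arrays in Cy3 and 1.14-fold in Cy5, Lamc1 spanned 2.29-fold and 1.14-fold, and Itgb5 spanned 2.06-fold and 1.13-fold. For these genes the differing ratios thus came with a differing Cy3 signal and a nearly steady Cy5 signal. Itga3, Itgal, Itgb7, Lamc3 and Itga2b, the last not well above background in Cy3, had the larger SD in Cy5. Dye, channel and RNA source cannot be told apart here.

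**Figure D4:**
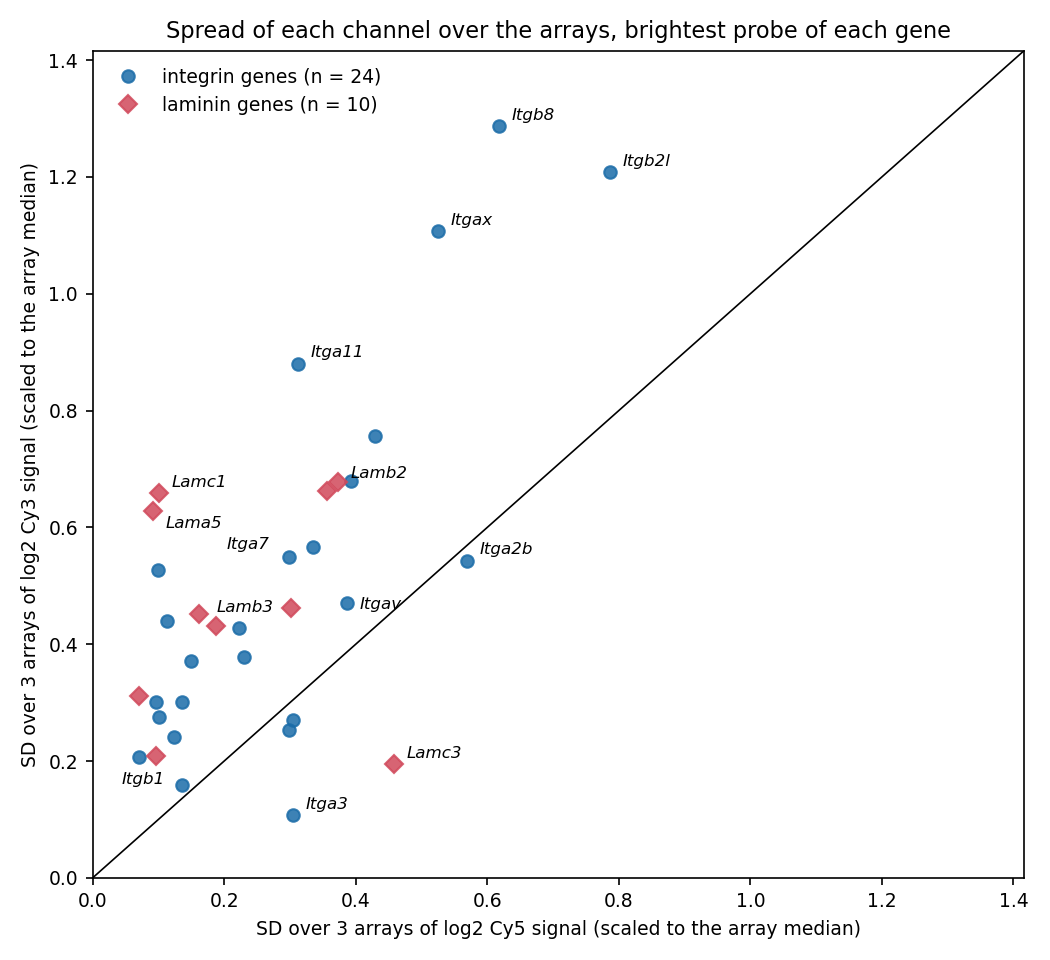
For each of the 34 tested genes, the SD over the 3 arrays of the log2 Cy3 signal (vertical axis) against that of the log2 Cy5 signal (horizontal axis), each relative to the array's median, with a diagonal where both are equal. The points of 29 genes lie above the diagonal, Itgb8 and Itgb2l highest and Lama5 and Lamc1 far to the left.

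Different probes of a gene could disagree. Of 20 genes with several tested probes, 9 had probes with mean ratios of opposite sign, which were Itga1, Itga4, Itga8, Itga9, Itgal, Itgav, Itgb3, Itgb4 and Lama3. Over all genes with several tested probes this share was 45.0%, so 9 of 20 is the share of the array as a whole. The means of Itga4, Itga8 and Itgb4 lay close to 0 on either side. Of the others, Itgav and Itgb3 were among the 5 genes brighter in Cy5 on all arrays. The other Itgav probe well above background gave -0.90, 0.05 and -0.31, and with the mean over all tested probes the Itgav ratio became -0.06. The largest disagreement was in Itga9, the alpha chain known from lymphatic vessels and smooth muscle. Its brighter probe had signals of 3563, 5591 and 3564 in Cy5 and of 3250, 5831 and 3431 in Cy3, with ratios of 0.13, -0.06 and 0.05. Its other probe had signals of 597, 1314 and 4579 in Cy5 and of 4720, 10199 and 4988 in Cy3, with ratios of -2.98, -2.96 and -0.12. Cy5 was thus low on replicates 1 and 2 and equal to Cy3 on replicate 3, while the brighter probe gave equal channels on all 3. The mean of the second probe was -2.02 ± 1.64 (SD, n = 3 arrays). Without replicate 3 its mean was -2.97 and its adjusted p by limma was 2.0e-18, with the spread estimated from the remaining 2 arrays and the other probes. It was then the only integrin or laminin probe called, in a fit that called 134 of all 29576 probes brighter in Cy3 and 409 brighter in Cy5, against 0 and 2 with all arrays.

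Itga6 showed the same kind of split. A pair of probes gave ratios near 0, the brightest at 0.13, -0.31 and -0.00 and the next at 0.04, -0.12 and -0.02. The dimmest probe, made from a cDNA clone, gave -1.43, 0.78 and -0.65, with signals of 123, 296 and 169 in Cy5 and of 329, 172 and 265 in Cy3 and a p of at most 0.0027 on each array. It thus changed direction between arrays while the other probes stayed level. Itgal had a second probe at 0.21, -1.34 and 0.28.

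The probe sequences show which of these probes could read the same stretch of RNA. Each probe has 60 bases, of which 30 are printed 5′ to 3′ for those probes of Itga9, Itga6, Itgav and Itgb3 that were well above background on all arrays, brightest first. Capitals mark the hexamers AATAAA or ATTAAA, the letters of the usual signals for adding a poly(A) tail, where the probe holds either.
Itga9 probe 1, bases 12 to 41: gcttttcagtctATTAAAgtgtttggtttg
Itga9 probe 2, bases 1 to 30: taccttcagctttgtgtagccaaaaaagcc
Itga6 probe 1, bases 1 to 30: tctggagtatcttggagcctagcacactgg
Itga6 probe 2, bases 1 to 30: gacacccagtatggacctacagtttcaact
Itga6 probe 3, bases 22 to 51: caaaataaggacATTAAAtgatcattctac
Itgav probe 1, bases 1 to 30: gggaatttagtggcaaagtatatattggta
Itgav probe 2, bases 1 to 30: aaagagtggtataatctagtccaaaagatg
Itgb3 probe 1, bases 1 to 30: tgggactctctgccattatgtttacagagg
Itgb3 probe 2, bases 1 to 30: ccacagcaacatcagagtctttgtccattt

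No pair of probes of the same gene in this set shared more than 7 bases in a row. Over the whole 60 bases, a hexamer was present in 4 of the 80 integrin and laminin probes on the strand shown, against 7.49% of all probes. On either strand it was present in 9 of the 80, against 13.7%. A probe that held both hexamers was counted once, and a hexamer is a description of the letters only. Over its whole 60 bases, not only those shown, Itga6 probe 3 had a stop codon in all 3 reading frames of the strand shown. This held for 12 of the 80 integrin and laminin probes and for 21.7% of all probes. Whether any of the probes lies in coding or untranslated sequence was not tested.

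The 2 pairs of probes that overlapped gave close values, as did some pairs that did not overlap. The 2 brightest Lama4 probes share 29 bases, shown in capitals, which end 1 probe and begin the other.
Lama4 probe 1, bases 1 to 30: TTGGATGTAGACTCAGAAGTGAACCATGTa
Lama4 probe 2, bases 31 to 60: gTTGGATGTAGACTCAGAAGTGAACCATGT

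The ratios of the second were 0.37, -0.45 and -0.22, against 0.16, -0.37 and -0.24 for the first, a mean difference of 0.11 without regard to sign. Another Lama4 probe with no such overlap gave 0.20, -0.88 and 0.01. The 2 brightest Itgb4 probes share 50 bases and differed by 0.14 on average, at 0.45, -0.35 and -0.24 and at 0.47, -0.30 and 0.10. The median difference was 0.44 over the 24 pairs of probes of the same gene that shared fewer than 20 bases in a row and were both well above background on all arrays, with a range from 0.099 to 2.06. These pairs come from 15 genes and share probes, so they are not independent.

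**Figure D5:**
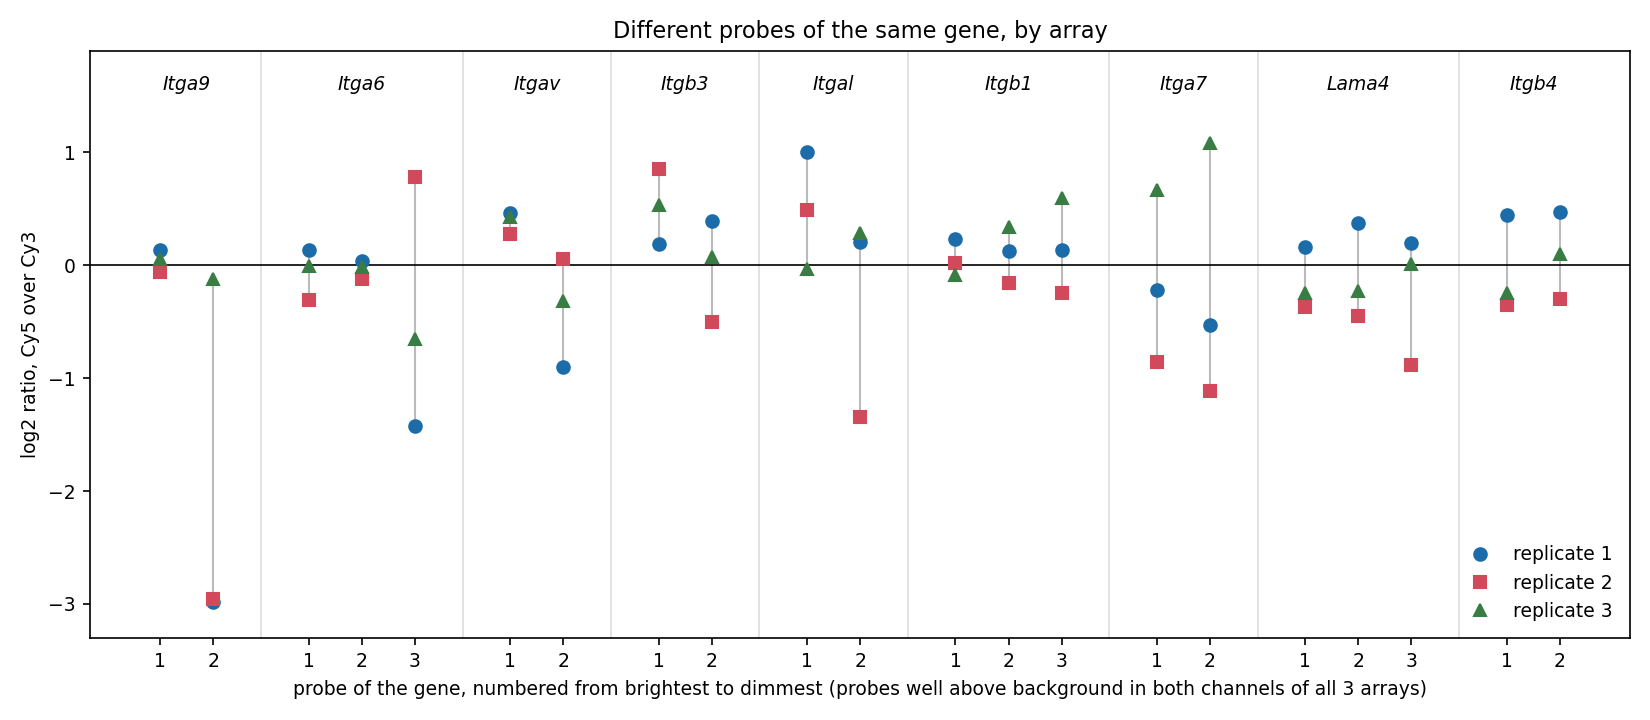
The log2 ratio of Cy5 over Cy3 (vertical axis) of each probe well above background on all arrays for 9 genes, with the probes of a gene numbered from brightest to dimmest and a symbol for each of the 3 arrays. The second Itga9 probe lies at -2.98 and -2.96 on replicates 1 and 2 beside a first probe near 0, and the overlapping probes of Lama4 and Itgb4 repeat each other's order.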

How the data were processed

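RNA of whole hearts was amplified, labelled and hybridized to 2-colour Agilent whole mouse genome arrays, with a pool of 2 hearts in each channel of 3 arrays. Each array came as a Feature Extraction 9.1.3.1 scanner file. Per the file headers, the processed signal intensity columns deposited by the authors had local background subtracted, trends over the array removed and the dyes normalized within each array, and the mean signal intensity columns were left as scanned. The log10 ratio that the authors deposited is Cy5 over Cy3 of the processed signals, and the p-value deposited with it comes from the scanner software's error model for that spot and array. The deposited series table held the same log10 ratios and was only compared.

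Deposited ratios were put on the log2 scale. Outlier spots (11, 21 and 4 of 43379 gene spots) were left out, and spots of a probe were averaged. RefSeq named 24844 probes, the array the others, and Lamb1-1 became Lamb1. Itgad was not analysed here. A tested gene was counted and not reported here by name. Probes with a geometric mean signal of at least 20 were tested with limma 3.58.1 in R 4.3.3 (intercept, eBayes with intensity trend, two-sided, Benjamini-Hochberg), also tested on simulated data. The brightest probe stood for a gene. Gene spots well above background numbered 28942, 29314 and 30269 in Cy3 and 30512, 30519 and 30810 in Cy5 on replicates 1 to 3, and the number of arrays limits precision. The p-values measure the spread between these pools, and would leave out that between wild-type pools if the arrays shared 1. An exact sign-flip test on 3 arrays cannot go below 0.25, so none was used.

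Named were genes at or above 1.2-fold in 1 direction on each array, main subunits of heart, vessels and blood, genes whose probes disagreed, up to 3 in each direction with the largest mean, and, chosen after their values were seen, other members that complete a family. The genes, lists and rules were chosen with earlier results of these data known. Alternatives were the background correction, normalization, signal filters, saturated probes, all probes of a gene, the variance prior, the methods' t-test in its one-sample form and each array left out.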

Additional observations from a re-analysis of the deposited data

How the results depend on the processing

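The count of 0 integrin or laminin probes called by limma held under all other alternatives run, except that leaving out replicate 3 gave 1 brighter in Cy3 (134 over all probes, and 409 in Cy5, against 0 and 2), so the range over arrays left out was 0 to 1, and that the unadjusted t-test gave 2 brighter in Cy5. Genes meeting the fold and array p criteria in Cy5 numbered 0 with normexp and loess (0.238% of all genes), 3 with no p criterion and 2 to 4 with an array left out, and in Cy3 0 to 1 with an array left out (1.69% to 2.52% of all genes). Genes brighter in Cy5 on all arrays numbered 8 with normexp and loess (16.1% of all genes), 14 with normexp and centring on the median (42.8%) and 8 to 10 with an array left out (20.7% to 24.6%). Those in Cy3 numbered 2 with normexp and loess (16.6%), 1 with centring (10.8%), 2 with the mean of all probes (11.6%) and 2 to 11 with an array left out (21.6% to 29.1%), and fewer arrays must share a direction then. The integrin median was 0.11 with normexp and loess and -0.067 to 0.15 with an array left out. Centring on the median moved the median of all genes to 0.18, beside 0.33 for the integrins, 0.35 for the laminins and 0.24 for the adhesion complex. Of the means of the 63 tested probes, 15 changed sign with normexp and loess and 27 with normexp and centring. Both settings change the background correction, with its offset of 50, and the normalization together, and which of them moved the values was not tested. The mean of all probes has no array p and gave no value for the fold and p criteria. The ratio already pairs the channels of an array, and no further pairing applies. Arrays in 1 dye orientation, 3 in number, limit all values, and the dim probe of Itgb2l was above background on some arrays only and that of Itga2b on none in Cy3.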
